A study of Mus musculus with 24 samples.

Results

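The response of mouse colon (COL) organoids to BRAFV600E alone was examined by RNA sequencing in 4 of the 24 organoid libraries of the study, namely the 2 induced (on) and the 2 non-induced (off) libraries of the COL BRAF culture, selected by their labels. Organoids are gel-embedded cultures of epithelium that start from isolated crypts. All 4 libraries had the genotype BraffloxV600E/+;Villin::CreERT2 on a C57BL/6N background and came from the culture of 1 donor mouse. On organoids received 3.5 µM 4-hydroxytamoxifen (4-HT) for 24 h, which activates the Cre recombinase that the Villin promoter drives in intestinal epithelium, and off organoids received ethanol. RNA was isolated on day 3. The off organoids therefore also carried the conditional allele, from which wild-type BRAF is expressed until recombination, and the inducible Cre. Since 1 culture was split, n = 2 is the number of libraries per group, the libraries of a group differ as handlings of that culture and not as animals, the spread behind each p-value is estimated per gene over all 12 COL libraries of 3 cultures, and BRAFV600E cannot be told apart from 4-HT and active Cre within this comparison. For that reason 2 other COL cultures treated in the same way are set beside it where stated, namely COL p53 (Trp53LSL-R172H/+;Villin::CreERT2), which has the Cre and 4-HT but no BRAFV600E, and COL BRAFp53, which carries both alleles. In COL p53 on organoids 4-HT switches on p53R172H, to which the paper ascribes dominant-negative effects, so this culture does not show 4-HT and Cre alone.

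BRAF is a kinase that activates MEK, which activates ERK. The V600E exchange keeps BRAF active without an upstream signal. ERK phosphorylates transcription factors of the ETS and AP-1 families and induces its own brakes, the dual-specificity phosphatases (Dusp) and the Sprouty proteins, so transcripts of these brakes are commonly read as a measure of pathway output. In the colon the crypt base is kept by Wnt signals, which maintain Lgr5-positive stem cells, and cells that leave it become absorptive colonocytes, mucus-producing goblet cells, hormone-producing enteroendocrine cells or tuft cells. BRAFV600E is the typical early lesion of serrated colon tumours, which often carry gastric markers and markers of a regenerating or fetal-like epithelium.

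The 4 libraries held 51.2 to 64.3 M counts (M, 1e6) over 21854 to 22750 detected genes. Levels are given as counts per 1e6 counts (CPM) after scaling by trimmed mean of M-values (TMM), and 3 counts, taken as the limit of detection, were 0.0466 to 0.0638 CPM. Mitochondrial transcripts held 5.54% and 8.14% of the off and 6.74% and 8.36% of the on counts. Replicates correlated at r = 0.971 and 0.973 across genes on the log2 CPM scale, and the counts of a pair differed beyond sampling noise. The label was checked against markers. Cdx2, a factor of small and large intestine (131 CPM off and 153 CPM on, means), was present in each library, which does not tell the region. Small intestinal markers, 13 of 14 tested, summed to 1180 and 1050 CPM off and 898 and 850 CPM on. Another 17 stromal and immune markers summed to 8.92 and 5.31 CPM off and 6.24 and 5.19 CPM on. Of these 17, 7 did not pass the filter on low counts, and 6 and 10 had no count in the off and 6 and 4 in the on libraries. On and off libraries also shared marks of their culture, chosen after their values were seen. Gata4, a factor of the more proximal gut, was at 54.8 and 47.1 CPM off and 37.8 and 35.8 CPM on, whereas no library of the other COL cultures exceeded 2.95 CPM. Whether the cultures came from the same stretch of colon was not tested. Eif2s3y, a Y-linked gene, was at 0.0933 and 0.035 CPM off and 0 and 0.128 CPM on, against 80.9 and 68.2 CPM off and 74.6 and 80.2 CPM on in COL p53 and 9.59 and 6.33 CPM off and 11.3 and 7.26 CPM on in COL BRAFp53. Braf itself (ENSMUSG00000002413, GRCm38 chromosome 6, 39603237 to 39725463) was at 29.4 and 30.8 CPM off and 42.1 and 39.4 CPM on, with no overlap of the groups, yet this did not pass the test across all genes (edgeR quasi-likelihood, log2 fold change 0.44, SE 0.15, adjusted p = 0.0595). Counts per gene do not tell the mutant from the wild-type transcript.

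Next, the scale of the response was determined. Of 18972 genes tested, 3776 passed an edgeR quasi-likelihood test at a Benjamini-Hochberg adjusted p under 0.05 (19.9%), of which 1953 were higher (10.3%) and 1823 lower (9.61%) in on organoids. Of 14518 protein-coding genes tested 24.6% were called, 1865 higher (12.8%) and 1710 lower (11.8%), and since all genes of the groups below are protein-coding, each group is to be read against these shares. Left out one at a time, the libraries gave 2223 genes without off replicate 1, 2281 without off replicate 2, 1961 without on replicate 1 and 2489 without on replicate 2. The median log2 fold change (on against off) was -0.01 over all genes, 0.94 over the higher and -0.79 over the lower ones. A change of at least 1 on the log2 scale was seen in 897 higher and 615 lower genes, and of at least 3 in 161 and 110. The groups overlapped for 2 of the called genes. In off organoids the genes that rose held 18.6% and 18.1% of all counts, and in on organoids 31.5% and 29.9%, while the genes that fell went from 14.9% and 14.5% to 8.26% and 8.28%. In these bulk samples a smaller share of cells of a type and less RNA per cell cannot be told apart. The plot of all genes by level shows calls of both directions across the range of levels.

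**Figure D1:**
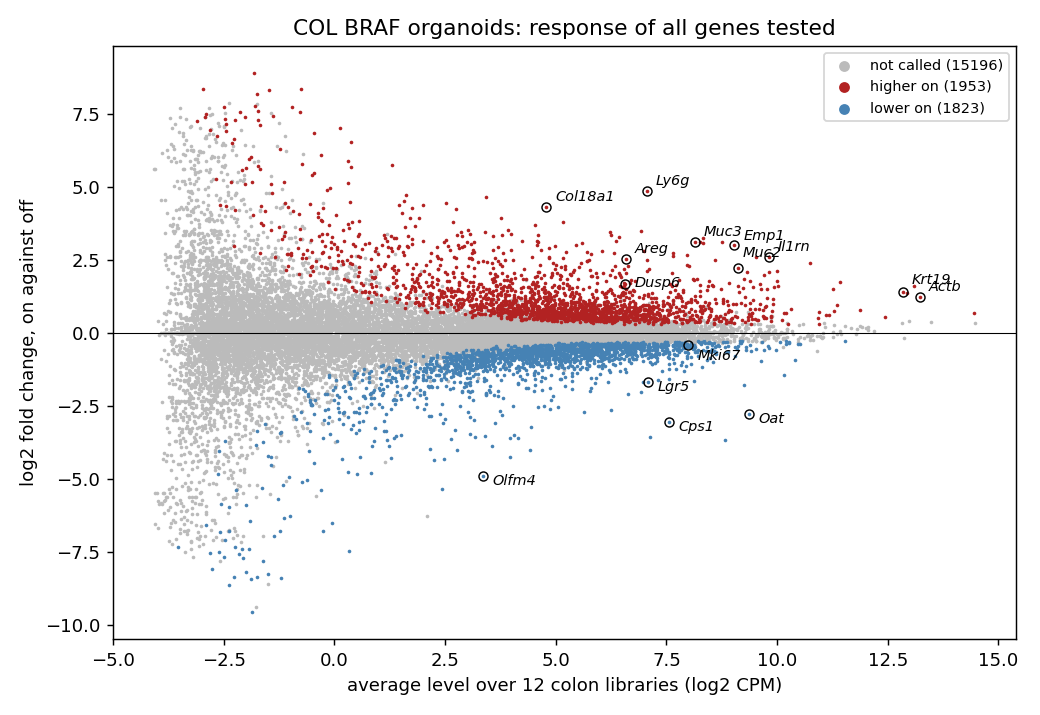
Log2 fold change of on against off in COL BRAF organoids (vertical axis) for the 18972 genes tested, by the average log2 CPM over the 12 COL libraries (horizontal axis). Red marks the 1953 genes called higher, blue the 1823 called lower and grey the rest; circled genes are named, and Ly6g and Olfm4 lie at 4.84 and -4.92.

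Transcripts of actin and of a pair of keratins were the most abundant nuclear protein-coding transcripts in on organoids. Per transcript length, as transcripts per 1e6 transcripts (TPM), Actb, the cytoplasmic actin, went from 6180 and 6090 TPM off to 12600 and 11600 TPM on. Krt8 went from 5540 and 5000 to 12200 and 10800 TPM and Krt19 from 5060 and 4440 to 11100 and 9900 TPM, and these 3 held ranks 1 to 3 among protein-coding genes outside the mitochondrial genome in on organoids, against ranks 6, 8 and 11 in off organoids. The mitochondrial mt-Co1 was above them in every library, at 18900 and 24820 TPM off and 20370 and 27400 TPM on. Car1, a carbonic anhydrase of colonocytes, held rank 4 on, at 9630 and 5910 TPM against 3030 and 2990 TPM off. In off organoids ranks 1 and 2, again without mitochondrial genes, belonged to Rpl36, a ribosomal protein, and Eef1a1, an elongation factor, at 8780 and 8610 and at 8460 and 7900 TPM. By share of counts, Actb rose from 0.68% to 1.4% (means). Among the 10 most abundant transcripts in on organoids it was behind the transcript listed as CT010467.1 and the mitochondrial mt-Rnr2 and mt-Co1. In off organoids Actb was also behind Lars2, Eef1a1 and mt-Cytb.

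The promoters of genes that moved were read first for the sequences to which factors downstream of ERK bind. AP-1 dimers of Fos and Jun proteins recognise TGANTCA. In windows from 250 bases before to 50 after the start of transcription (RefSeq, GRCm38.p6; both strands searched), TGANTCA was present in 7.13% of the 12263 tested genes with a window, in 10.6% of those that rose, in 6.19% of those that fell, and in 9 of 20 genes with a window (45%) of a group of fetal and regenerative genes. Other groups held it in 5 of 16 (chemokines and cytokines, 31.2%), 3 of 11 (matrix proteases, 27.3%), 4 of 16 (goblet cell genes, 25%), 3 of 13 (NRF2 targets, 23.1%) and 4 of 18 (claudins and junctions, 22.2%) windows, whereas 0 of 15 genes of ERK feedback, 0 of 16 of AP-1 and immediate early genes and 0 of 5 EGF ligands had a match. This is a description of letters, not of binding, and was not tested. Stretches from 8 of the genes that rose are shown because they carry the motif near the start (capitals; the first base lies 146 and 116 bases before the start in Sprr1a, 145 and 25 in Emp1, 240 and 158 in Cldn4, 141 in Il1rn, 69 in Plaur, 95 in Anxa2, 136 and 38 in S100a11 and 64 in Ecm1).
Sprr1a, chr3:92485966-92486052, minus strand: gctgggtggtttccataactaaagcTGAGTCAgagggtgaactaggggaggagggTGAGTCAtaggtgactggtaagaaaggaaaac
Emp1, chr6:135362761-135362930, plus strand: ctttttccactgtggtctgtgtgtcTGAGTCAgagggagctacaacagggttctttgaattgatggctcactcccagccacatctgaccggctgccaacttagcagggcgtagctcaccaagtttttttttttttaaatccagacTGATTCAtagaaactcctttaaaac
Cldn4, chr5:134947061-134947184, minus strand: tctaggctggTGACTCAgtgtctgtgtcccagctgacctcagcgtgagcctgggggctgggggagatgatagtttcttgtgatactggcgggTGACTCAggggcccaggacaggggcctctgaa
Il1rn, chr2:24336694-24336750, plus strand: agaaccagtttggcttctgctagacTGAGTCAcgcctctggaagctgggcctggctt
Plaur, chr7:24462389-24462445, plus strand: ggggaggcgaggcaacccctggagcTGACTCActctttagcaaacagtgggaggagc
Anxa2, chr9:69453563-69453619, plus strand: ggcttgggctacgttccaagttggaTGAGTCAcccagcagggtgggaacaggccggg
S100a11, chr3:93520335-93520489, plus strand: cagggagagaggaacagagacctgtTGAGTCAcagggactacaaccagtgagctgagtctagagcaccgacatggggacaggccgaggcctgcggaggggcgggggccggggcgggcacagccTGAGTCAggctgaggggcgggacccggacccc
Ecm1, chr3:95739602-95739658, minus strand: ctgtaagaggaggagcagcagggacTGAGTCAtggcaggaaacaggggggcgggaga

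TTTGAA, the cell cycle homology region through which DREAM and MuvB complexes act on genes of G2 and mitosis, was present in 15.1% of all windows, 12.6% of those of genes that rose, 20.1% of those of genes that fell and 11 of 27 (40.7%) of those of the proliferation group. It was also present in 12 of 27 windows (44.4%) of the xenobiotic metabolism list and 3 of 8 (37.5%) of the tuft cell list. Stretches of 4 genes that fell show it in capitals, with the first base 71 and 15 bases before the start in Cdk1, 18 in Cdc20, 70 in Mcm2 and 167 in Ccnb2. Of these, Cdc20 lost its call in 3 of 4 fits that lacked a library (highest adjusted p = 0.191, without on replicate 1) and Mcm2 in all 4 (0.164, without on replicate 1). Mcm2 is a gene of DNA replication and not of G2 or mitosis, and binding at these matches was not tested. The last stretch, of Dusp5, which rose, holds a pair of adjacent CArG boxes (the binding sequence of serum response factor, present in 1.59% of all windows), which begin 82 and 72 bases before the start.
Cdk1, chr10:69352913-69353008, minus strand: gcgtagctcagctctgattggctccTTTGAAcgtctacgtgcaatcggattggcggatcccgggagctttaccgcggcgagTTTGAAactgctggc
Cdc20, chr4:118437344-118437386, minus strand: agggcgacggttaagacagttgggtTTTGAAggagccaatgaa
Mcm2, chr6:88898820-88898875, minus strand: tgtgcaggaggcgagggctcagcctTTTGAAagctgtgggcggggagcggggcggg
Ccnb2, chr9:70421691-70421746, minus strand: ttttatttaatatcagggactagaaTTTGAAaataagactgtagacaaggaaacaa
Dusp5, chr19:53529038-53529107, plus strand: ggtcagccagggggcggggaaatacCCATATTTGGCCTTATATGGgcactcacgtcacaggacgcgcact

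Transcripts that ERK induces as its own brakes were more often higher than lower. Of 18 negative regulators tested, 11 (7 without off replicate 1, 6 without on replicate 1) were higher and 1 was lower (median log2 fold change 0.87). Spry4, a Sprouty inhibitor of receptor signalling, was at 2.44 and 2.05 CPM off and 19.9 and 17 CPM on (log2 fold change 3.04, SE 0.34, adjusted p = 0.00015). Dusp6, a cytoplasmic phosphatase specific for ERK (ENSMUSG00000019960, chromosome 10, 99263231 to 99267489), was at 36.3 and 47.2 CPM off and 141 and 122 CPM on (log2 fold change 1.66, SE 0.19, adjusted p = 0.000176). Dusp5, the nuclear ERK phosphatase whose CArG boxes are shown above, was at 10.04 and 8.48 CPM off and 38.4 and 33.3 CPM on (log2 fold change 1.95, SE 0.25, adjusted p = 0.000297). For each of these genes the lower on library lay well above the higher off library. Dusp10, which acts on p38 and JNK, rose by 2.03 and Dusp4 by 1.26. Errfi1, an inhibitor of the EGF receptor, rose by 1.42 on the same scale. Spry2 (log2 fold change 0.35, adjusted p = 0.0706) and Spred1 (log2 fold change 0.12, adjusted p = 0.651) did not pass. Lrig1, a stem cell marker that restrains ERBB receptors, fell by 0.60 (75.1 and 75.8 CPM off and 48 and 51.4 CPM on, adjusted p = 0.0075). With 1 of the 4 libraries left out in turn, the call was lost in at least 1 fit for Lrig1 (adjusted p = 0.0685 without on replicate 1), where the highest adjusted p is given.

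Members of the cascade itself had smaller fold changes. Of 25 genes for receptors, RAS and its regulators, the kinases up to ERK and kinases downstream of it, 7 (4 without off replicate 1, 4 without off replicate 2, 3 without on replicate 1) were higher (median log2 fold change 0.35). Rras and Hras, small GTPases, rose by 1.27 and 1.15, and Map2k2 and Map2k1, the MEK kinases, by 0.86 and 0.64. Mapk3, which encodes ERK1, was at 179 and 170.2 CPM off and 235 and 241 CPM on (log2 fold change 0.45, SE 0.12, adjusted p = 0.025). Egfr, the EGF receptor, rose by 0.64. Ligands of this receptor had larger fold changes. Areg (amphiregulin) was at 45 and 53.8 CPM off and 285 and 279 CPM on (log2 fold change 2.51, SE 0.17, adjusted p = 7.26e-06). Hbegf was at 32.8 and 39.96 CPM off and 132 and 147 CPM on (log2 fold change 1.94, SE 0.21, adjusted p = 0.000101). Btc (betacellulin) was at 35.6 and 45.2 CPM off and 168 and 132 CPM on (log2 fold change 1.89, SE 0.16, adjusted p = 2.37e-05). Ereg (epiregulin) was at 1.54 and 0.42 CPM off and 16.8 and 8.89 CPM on (log2 fold change 3.69, SE 0.43, adjusted p = 0.000186). With Tgfa (log2 fold change 0.80), 5 of 7 ligands tested rose (median log2 fold change 1.94). Every on library exceeded both off libraries for these 5. Epgn was under 3 counts off and Egf itself had log2 fold change -1.50, adjusted p = 0.0782. When single libraries were left out, the call was lost in at least 1 fit for Map2k1 (adjusted p = 0.086 without on replicate 1), Mapk3 (adjusted p = 0.142 without off replicate 2), Egfr (adjusted p = 0.125 without on replicate 1) and Tgfa (adjusted p = 0.0947 without on replicate 1), where the highest adjusted p is given.

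Of 23 AP-1 and immediate early genes, 12 were higher (median log2 fold change 0.90). Fosl1, the FRA1 subunit of AP-1 that ERK stabilises, was at 2.33 and 2.45 CPM off and 21.2 and 26.6 CPM on (log2 fold change 3.32, SE 0.25, adjusted p = 1.1e-05). Fos was at 55.5 and 68 CPM off and 219 and 214 CPM on (log2 fold change 1.81, SE 0.20, adjusted p = 0.000121), and Junb and Jund rose by 1.44 and 1.09. Jun did not pass (21.2 and 24.6 CPM off and 20.2 and 22 CPM on, log2 fold change -0.12, adjusted p = 0.719). Egr1, a target of ELK1 and serum response factor, was at 24.6 and 26.2 CPM off and 48.3 and 52.8 CPM on (log2 fold change 0.99, SE 0.15, adjusted p = 0.000811). Klf6 and Ier3, immediate early genes, rose by 1.84 and 1.46. Myc, a growth factor target that Wnt also drives, had log2 fold change -0.32, adjusted p = 0.168. Among 17 ETS factors 5 (3 without on replicate 1, 3 without on replicate 2) were higher and 1 (0 without off replicate 1, 0 without off replicate 2, 0 without on replicate 1) was lower. Etv4 was at 19.5 and 15.8 CPM off and 38 and 47.1 CPM on (log2 fold change 1.27, SE 0.24, adjusted p = 0.00367). Elk3 was at 2.77 and 4.07 CPM off and 16.4 and 15 CPM on (log2 fold change 2.20, SE 0.24, adjusted p = 0.000109), while Etv5, of the same subfamily as Etv4, had log2 fold change 0.18, adjusted p = 0.578. Elf3, an ETS factor of epithelial differentiation, fell by 0.35 from a high level (1402 and 1259 CPM off and 1057 and 1025 CPM on). In fits without 1 library, the call was lost in at least 1 fit for Junb (adjusted p = 0.0853 without off replicate 2) and Elf3 (adjusted p = 0.258 without off replicate 1), where the highest adjusted p is given.

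**Figure D2:**
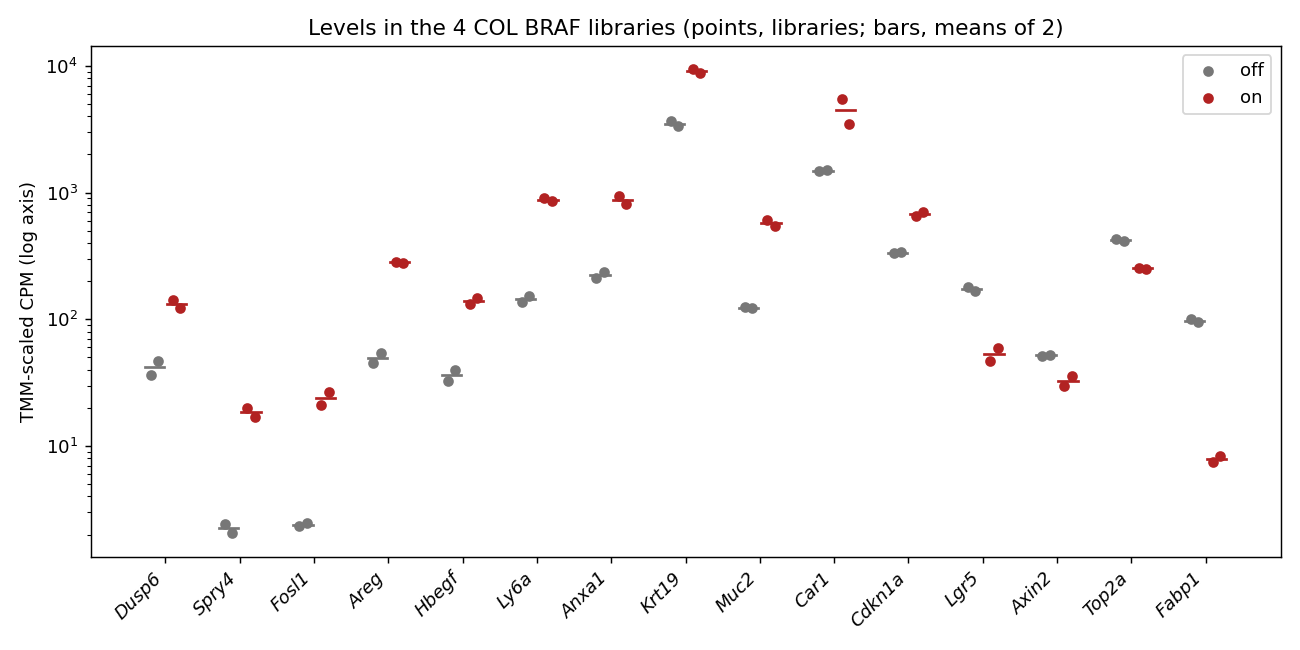
Levels of 15 genes in the 4 COL BRAF libraries, as TMM-scaled CPM on a log axis; grey points are off and red points on libraries, and short bars are means of 2. Dusp6 to Cdkn1a lie higher on, and Lgr5 to Fabp1 lie lower on, without overlap of the groups.

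Genes of a fetal and regenerative epithelium were mostly called higher. Of 30 such genes tested, 26 were higher (median log2 fold change 2.02), and 4 (Il33, Gja1, Spp1 and Ly6e) were not called. Summed over the group, levels went from 4470 and 4530 CPM to 18400 and 16300 CPM. Ly6a, the SCA1 antigen of regenerating crypts (ENSMUSG00000075602, chromosome 15, 74994877 to 74998031), was at 136 and 153 CPM off and 902 and 851 CPM on (log2 fold change 2.60, SE 0.16, adjusted p = 7.26e-06). Ly6g of the same family was at 5.01 and 7.22 CPM off and 182 and 168 CPM on (log2 fold change 4.84, SE 0.30, adjusted p = 7.26e-06), and Ly6d and Ly6c1 rose by 3.14 and 2.55. Members of the Ly6 family are similar in sequence, so reads may be split between them. Annexins, which bind membranes in the presence of calcium, rose in all 5 members listed, with Anxa8 at 18.1 and 14 CPM off and 187 and 175 CPM on (log2 fold change 3.49, SE 0.25, adjusted p = 1.07e-05). Anxa1 was at 210 and 236 CPM off and 942 and 819 CPM on (log2 fold change 1.98, SE 0.13, adjusted p = 7.26e-06). Emp1, a membrane protein, was at 86.2 and 104 CPM off and 788 and 721 CPM on (log2 fold change 2.99, SE 0.20, adjusted p = 7.26e-06). Il1rn, the antagonist of the interleukin 1 receptor, was at 177 and 195 CPM off and 1234 and 996 CPM on (log2 fold change 2.58, SE 0.19, adjusted p = 1.07e-05). Sprr1a, a precursor of the cornified envelope of squamous epithelium, rose from 82.1 and 77.2 CPM to 745 and 639.6 CPM (log2 fold change 3.12). Tm4sf4 rose by 3.08, Msln (mesothelin) by 2.72 and Plaur, the urokinase receptor, by 2.12. Among calcium-binding S100 proteins S100a6 was at 326 and 354 CPM off and 1534 and 1392 CPM on (log2 fold change 2.11, SE 0.14, adjusted p = 7.26e-06) and S100a14 rose by 2.65. Clu (clusterin), the marker of revival stem cells, was less uniform, at 205 and 191 CPM off and 512 and 285 CPM on (log2 fold change 1.01, SE 0.31, adjusted p = 0.0395). On leaving out single libraries, the call was lost in at least 1 fit for Clu (adjusted p = 0.376 without on replicate 1), where the highest adjusted p is given.

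Of 16 keratins tested, 9 were higher and the others were not called (median log2 fold change 1.53), with summed levels of 10200 and 9520 CPM off and 27100 and 25400 CPM on. The simple epithelial pairs rose in like measure, Krt8 by 1.35, Krt18 by 1.48 and Krt19 by 1.38. Krt7 was at 408 and 370.1 CPM off and 1183 and 1118 CPM on (log2 fold change 1.56, SE 0.18, adjusted p = 0.000147). Krt23 was at 45.8 and 50.6 CPM off and 232 and 207 CPM on (log2 fold change 2.19, SE 0.17, adjusted p = 1.15e-05). Krt36 rose from 0.202 and 0.14 CPM to 4.63 and 4.45 CPM (log2 fold change 4.71). Krt13, a squamous keratin, was at or under 3 counts in both off libraries and at 1.94 and 1.92 CPM on. Targets of YAP, the effector of the Hippo pathway, were higher in 10 (6 without on replicate 1) of 17 genes (median log2 fold change 0.92, 0.56 without on replicate 1). F3, which encodes tissue factor, was at 133 and 139 CPM off and 844 and 666 CPM on (log2 fold change 2.47, SE 0.21, adjusted p = 2.11e-05). Tead4, a DNA-binding partner of YAP, was at 3.22 and 3.18 CPM off and 17.2 and 20.5 CPM on (log2 fold change 2.56, SE 0.23, adjusted p = 3.14e-05). Of the classical targets, Ccn2 rose by 1.78, whereas Ccn1 had log2 fold change 0.20, adjusted p = 0.37 and Ankrd1 had log2 fold change 1.30, adjusted p = 0.139. Of 19 markers of stomach and serrated lesions 7 did not pass the filter on low counts, namely Muc5ac, Tff1, Tff2, Gkn1, Gkn2, Sox2 and Aqp5, of which Muc5ac, Gkn2 and Sox2 had no count in any of the 4 libraries. Among the 12 tested, 5 (3 without on replicate 1) were higher (median log2 fold change 1.58). Anxa10 was at 8.19 and 11.1 CPM off and 98.8 and 54.5 CPM on (log2 fold change 3.00, SE 0.30, adjusted p = 6.42e-05). Vsig1, a junction protein of gastric epithelium, was at 25.5 and 32.2 CPM off and 65.9 and 57 CPM on (log2 fold change 1.09, SE 0.18, adjusted p = 0.00154). Cldn18, a gastric claudin, was at 1.29 and 1.38 CPM off and 5.87 and 4.34 CPM on (log2 fold change 1.93, SE 0.50, adjusted p = 0.018). Ctse (cathepsin E) was at 2.77 and 2.52 CPM off and 7.74 and 4.57 CPM on with no overlap, but did not pass (log2 fold change 1.22, SE 0.40, adjusted p = 0.0527). Without 1 library each, the call was lost in at least 1 fit for Cldn18 (adjusted p = 0.127 without on replicate 1), where the highest adjusted p is given.

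Stem cell and Wnt target genes were more often lower than higher. Of 30 tested, 12 were lower and 4 (2 without off replicate 2) higher (median log2 fold change -0.57). Lgr5, the receptor that marks crypt base stem cells (ENSMUSG00000020140, chromosome 10, 115450311 to 115587780), was at 179 and 167 CPM off and 46.9 and 59.4 CPM on (log2 fold change -1.71, SE 0.21, adjusted p = 0.000226). Smoc2 was at 77.6 and 72.7 CPM off and 21.1 and 30.4 CPM on (log2 fold change -1.55, SE 0.25, adjusted p = 0.00138) and Olfm4, a marker of crypt base cells that Notch drives, fell most (40.03 and 25.2 CPM off and 1.09 and 1.06 CPM on, log2 fold change -4.92, SE 0.81, adjusted p = 0.00138). Among feedback genes of the Wnt pathway, Axin2 was at 51.7 and 52.4 CPM off and 29.8 and 35.8 CPM on (log2 fold change -0.67, SE 0.15, adjusted p = 0.00853), and the receptor ubiquitin ligases Znrf3 and Rnf43 fell by 0.86 and 0.50. Slc12a2 and Cdca7, further crypt genes, fell by 1.0 and 1.58. Ascl2, a stem cell factor, was at 72.8 and 27.7 CPM off and 13.7 and 30.9 CPM on and did not pass (log2 fold change -1.18, adjusted p = 0.0985), and Sox9 had log2 fold change -0.20, adjusted p = 0.432. Cd44 and Ephb2, also Wnt targets of the crypt, rose by 0.79 and 0.58. In the Notch pathway, which keeps progenitors undifferentiated, 6 (3 without on replicate 1) of 16 genes were lower and 2 (0 without off replicate 1, 1 without off replicate 2, 1 without on replicate 1, 0 without on replicate 2) higher. The ligand Dll1 was at 7.85 and 6.7 CPM off and 2.07 and 2 CPM on (log2 fold change -1.84, SE 0.36, adjusted p = 0.00385). The receptor Notch1 was at 37.3 and 30.4 CPM off and 14.6 and 17.5 CPM on (log2 fold change -1.08, SE 0.18, adjusted p = 0.00147). The target Hes1 was at 34.1 and 38.4 CPM off and 21.8 and 27.9 CPM on (log2 fold change -0.55, SE 0.16, adjusted p = 0.0342). Jag2, another ligand, rose by 0.90. In fits that lacked 1 library, the call was lost in at least 1 fit for Axin2 (adjusted p = 0.0931 without on replicate 1), Hes1 (adjusted p = 0.251 without on replicate 1) and Jag2 (adjusted p = 0.158 without on replicate 2), where the highest adjusted p is given.

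Most proliferation genes fell. Of 34 tested, 28 (16 without on replicate 1) were lower, all 34 had a log2 fold change below 0 (median log2 fold change -0.73), and their summed level went from 3640 and 3580 CPM to 2220 and 2280 CPM. Genes of DNA replication and of mitosis were both among them. Mcm5, of the replicative helicase, was at 134 and 118 CPM off and 75.2 and 72.5 CPM on (log2 fold change -0.77, SE 0.14, adjusted p = 0.00215). Pcna, the sliding clamp, was at 169.9 and 183 CPM off and 106 and 102 CPM on (log2 fold change -0.76, SE 0.13, adjusted p = 0.00182). Top2a was at 429 and 417 CPM off and 256 and 248 CPM on (log2 fold change -0.75, SE 0.11, adjusted p = 0.000752). Cdk1, the mitotic kinase (ENSMUSG00000019942, chromosome 10, 69335146 to 69352938), was at 120.5 and 118 CPM off and 62.4 and 73.8 CPM on (log2 fold change -0.81, SE 0.15, adjusted p = 0.0032), and Bub1b and Kif20a, of the spindle checkpoint and of cytokinesis, fell by 1.12 and 1.23. Mki67, the usual marker of cycling cells, fell by 0.42 (324 and 363 CPM off and 265 and 247 CPM on), less than the median of the group. Among 18 cyclins, their kinases and inhibitors, 3 (1 without off replicate 1) were higher and 5 (3 without off replicate 1, 2 without off replicate 2, 1 without on replicate 1) lower. Cdkn1a, the p21 inhibitor, was at 332 and 341 CPM off and 655 and 709 CPM on (log2 fold change 1.02, SE 0.17, adjusted p = 0.00152). The Cdkn2a locus, a known barrier to BRAFV600E, stood at 0.295 and 0.612 CPM off and 0.786 and 0.404 CPM on, and no change was called (log2 fold change 0.42, SE 0.45, adjusted p = 0.583). Cdkn2b was at 48.6 and 37.6 CPM off and 78.9 and 80.2 CPM on (log2 fold change 0.88, SE 0.34, adjusted p = 0.0917), and did not pass although the groups did not overlap. Ccnd2 rose by 0.49, Ccnd1 had log2 fold change 0.43, adjusted p = 0.0794, and Cdk4 fell by 0.64. Once a library was left out, the call was lost in at least 1 fit for Mki67 (adjusted p = 0.111 without off replicate 2), Ccnd2 (adjusted p = 0.0712 without off replicate 1) and Cdk4 (adjusted p = 0.0769 without on replicate 1), where the highest adjusted p is given.

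Transcripts of the p53 pathway were examined because this culture carries no Trp53 mutation. Trp53 itself (ENSMUSG00000059552, chromosome 11, 69580359 to 69591873) was at 289 and 285 CPM off and 202 and 223 CPM on (log2 fold change -0.44, SE 0.13, adjusted p = 0.0332). Of 30 targets tested, 16 were higher and 4 lower (median log2 fold change 0.70). Besides Cdkn1a, Mdm2, the ubiquitin ligase of p53, was at 32 and 38.1 CPM off and 72.4 and 72.3 CPM on (log2 fold change 1.05, SE 0.15, adjusted p = 0.000552). Bax, a pore-forming effector of apoptosis, was at 169 and 155 CPM off and 262 and 257 CPM on (log2 fold change 0.68, SE 0.10, adjusted p = 0.000871). Plk2 was at 39.3 and 41.9 CPM off and 116 and 126 CPM on (log2 fold change 1.58, SE 0.11, adjusted p = 7.26e-06). Phlda3, an AKT inhibitor, Tnfrsf10b, a death receptor, and Ccng1 rose by 1.16, 1.14 and 0.55. The targets that fell include Ddb2, of nucleotide excision repair (6.9 and 7.94 CPM off and 1.86 and 2.36 CPM on, log2 fold change -1.82, SE 0.27, adjusted p = 0.000782), and Sesn1, a sestrin, by 1.16. Ckap2, which is also a mitotic gene, fell by 1.06. Of 21 genes of apoptosis, 9 (5 without on replicate 1) were higher and 1 was lower (median log2 fold change 0.50, 0.30 without off replicate 2 and 0.26 without on replicate 1), on both sides of the balance. Bok and Bak1, which favour death, rose by 1.37 and 0.77, and Mcl1 and Bcl2l1, which oppose it, by 0.87 and 0.87. Casp8, the initiator caspase of death receptors, rose by 0.69, and Casp6 fell by 0.79. With a library removed, the call was lost in at least 1 fit for Trp53 (adjusted p = 0.201 without on replicate 1) and Bcl2l1 (adjusted p = 0.0788 without on replicate 1), where the highest adjusted p is given.

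The markers of absorptive colonocytes split. Of 35 tested, 13 were higher and 10 lower (median log2 fold change 0.26, 0.48 without on replicate 2). Among those that rose were surface and brush border genes. Muc3, a membrane mucin, was at 61.8 and 71.4 CPM off and 577 and 559 CPM on (log2 fold change 3.09, SE 0.23, adjusted p = 1.1e-05). Krt20, the keratin of the upper crypt, was at 346 and 374 CPM off and 1397 and 1077 CPM on (log2 fold change 1.78, SE 0.25, adjusted p = 0.000492). Car1 was at 1473 and 1512 CPM off and 5492 and 3510 CPM on (log2 fold change 1.59, SE 0.27, adjusted p = 0.00161). Car4, a membrane carbonic anhydrase, rose from 3 and 1.66 CPM to 20.3 and 17.5 CPM (log2 fold change 3.01), and Vil1, the gene whose promoter drives the Cre, was at 471 and 466 CPM off and 856 and 777 CPM on (log2 fold change 0.80, SE 0.14, adjusted p = 0.0021). Cdhr2 and Cdhr5, the cadherins that link microvilli, rose by 1.48 and 1.09. The fatty acid binding proteins went opposite ways. Fabp2 was at 186 and 180.5 CPM off and 571 and 539 CPM on (log2 fold change 1.60, SE 0.17, adjusted p = 9.65e-05). Fabp1 was at 100.2 and 94.6 CPM off and 7.53 and 8.36 CPM on (log2 fold change -3.62, SE 0.25, adjusted p = 7.26e-06). Its off level was particular to this culture. In off organoids Fabp1 was at 0.645 and 0.477 CPM in COL p53 and 0.0931 and 0.275 CPM in COL BRAFp53. Car2 fell by 0.95, Cldn15 by 1.10 and Slc5a8, a transporter of short-chain fatty acids, from 12.6 and 10.3 CPM to 3.45 and 1.08 CPM (log2 fold change -2.30). The carboxylesterase Ces1d was at 52.6 and 39.4 CPM off and 4.38 and 3.7 CPM on (log2 fold change -3.51, SE 0.22, adjusted p = 7.26e-06), a member of a family of similar genes.

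Most factors of intestinal identity did not pass the test. Of 20 tested, 2 (0 without off replicate 1, 1 without on replicate 2) were higher and 5 (1 without off replicate 1, 2 without off replicate 2, 2 without on replicate 1, 2 without on replicate 2) lower (median log2 fold change -0.05, -0.17 without off replicate 2). Hnf4a (log2 fold change 0.22, adjusted p = 0.165), Cdx2 (log2 fold change 0.22, adjusted p = 0.263) and Cdx1 (log2 fold change 0.21, adjusted p = 0.442) did not pass. Nr2e3, a nuclear receptor, fell from 8.55 and 9.83 CPM to 0.602 and 0.319 CPM (log2 fold change -4.30, SE 0.49, adjusted p = 0.000209), and Ppara, the receptor that drives fatty acid oxidation, fell by 1.27. Of 10 genes of epithelial identity, 7 were higher (median log2 fold change 0.60), and of 13 small intestinal markers 1 was higher and 1 was lower. In fits with a library missing, the call was lost in at least 1 fit for Ppara (adjusted p = 0.215 without on replicate 2), where the highest adjusted p is given.

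Some goblet and enteroendocrine markers rose, while Atoh1 fell. Of 24 goblet genes, 10 were higher and 2 (1 without off replicate 1, 1 without on replicate 2) lower (median log2 fold change 0.48). Muc2, the gel-forming mucin of the colon, was at 125 and 123 CPM off and 613 and 542 CPM on (log2 fold change 2.22, SE 0.21, adjusted p = 4.13e-05). Zg16, a lectin of mucus, was at 41.9 and 39.4 CPM off and 182 and 134 CPM on (log2 fold change 1.96, SE 0.29, adjusted p = 0.000815). Clca1 was at 62.4 and 50.9 CPM off and 203 and 138 CPM on (log2 fold change 1.59, SE 0.22, adjusted p = 0.000568). Agr2, a disulfide isomerase for mucins, and Spdef, a goblet factor, rose by 0.75 and 0.69. Atoh1, which commits progenitors to the secretory lineage, fell from 15.5 and 13.6 CPM to 5.5 and 6.4 CPM (log2 fold change -1.29, SE 0.18, adjusted p = 0.000487). Tff3, a trefoil peptide, had log2 fold change 0.45, adjusted p = 0.0685. Of 18 enteroendocrine genes, 7 (4 without off replicate 2) were higher (median log2 fold change 0.66, 1.24 without off replicate 1). Sct (secretin) was at 8.95 and 6.63 CPM off and 54.8 and 54.8 CPM on (log2 fold change 2.81, SE 0.29, adjusted p = 7.71e-05). Tph1, which makes serotonin, was at 7.2 and 4.69 CPM off and 21.3 and 19.4 CPM on (log2 fold change 1.77, SE 0.30, adjusted p = 0.00155). Pyy was at 61.1 and 32.9 CPM off and 168 and 139 CPM on (log2 fold change 1.71, SE 0.34, adjusted p = 0.00429). Chgb (chromogranin B) rose by 1.06, whereas Chga had log2 fold change 0.50, adjusted p = 0.169 and the progenitor factor Neurog3 had log2 fold change -0.22, adjusted p = 0.67. Of 11 tuft cell genes 2 (0 without off replicate 1, 0 without off replicate 2, 1 without on replicate 1, 0 without on replicate 2) were higher, while the defining Dclk1 (log2 fold change 0.24, adjusted p = 0.513) and Pou2f3 (log2 fold change -0.71, adjusted p = 0.112) did not pass. With 1 of the 4 libraries left out in turn, the call was lost in at least 1 fit for Agr2 (adjusted p = 0.0695 without off replicate 2) and Spdef (adjusted p = 0.157 without off replicate 1), where the highest adjusted p is given.

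**Figure D3:**
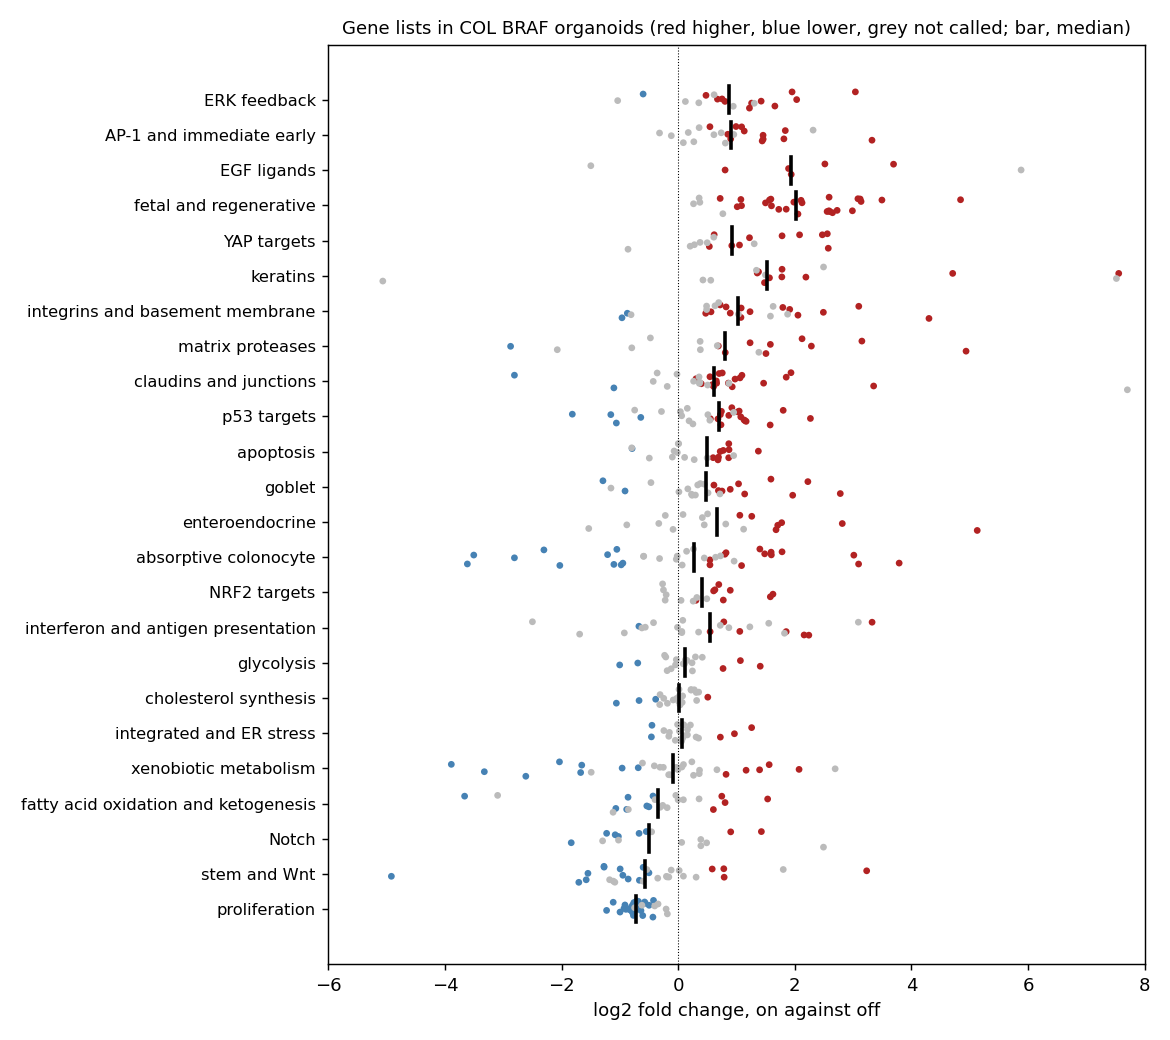
Log2 fold change of on against off for the tested members of 24 gene lists in COL BRAF organoids. Each point is a gene, red for called higher, blue for called lower and grey for not called, bars are medians, and points beyond the axis are not drawn. Medians run from 2.02 for the fetal and regenerative list to -0.73 for the proliferation list.

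Genes of cell contacts and of the basement membrane were more often higher than lower. Of 31 claudin and junction genes, 18 (11 without on replicate 1) were higher and 2 lower (median log2 fold change 0.61). Cldn4 was at 118 and 93.4 CPM off and 396 and 368 CPM on (log2 fold change 1.85, SE 0.19, adjusted p = 8.43e-05). Cldn23 was at 28.2 and 25.7 CPM off and 79.2 and 69.3 CPM on (log2 fold change 1.46, SE 0.19, adjusted p = 0.000394), whereas Cldn8, which seals the distal colon, fell to 4.01 and 4.53 CPM from 31.3 and 28.6 CPM (log2 fold change -2.81, SE 0.21, adjusted p = 1.1e-05). Cldn2, a pore-forming claudin of the crypt, had log2 fold change -0.36, adjusted p = 0.133. Tjp1, which encodes the scaffold ZO-1, rose by 1.06, and Cdh1, which encodes E-cadherin, was at 774 and 778 CPM off and 1259 and 1191 CPM on (log2 fold change 0.66, SE 0.10, adjusted p = 0.000977). Of 25 integrin and basement membrane genes, 14 were higher and 2 (0 without off replicate 1, 1 without off replicate 2, 0 without on replicate 1, 0 without on replicate 2) lower (median log2 fold change 1.03). Col18a1, a collagen of basement membranes, was at 3.65 and 4.7 CPM off and 87 and 77.4 CPM on (log2 fold change 4.30, SE 0.29, adjusted p = 7.26e-06). Lama3 and Lamb3, chains of the hemidesmosomal laminin, rose by 2.49 and 1.23, and both chains of its receptor rose, Itgb4 by 1.79 and Itga6 by 0.89. Nid1 (nidogen) was at 5.6 and 5.67 CPM off and 48 and 48.3 CPM on (log2 fold change 3.10, SE 0.30, adjusted p = 5.36e-05).

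Mesenchymal genes were at low levels. Of 11 genes of epithelial-mesenchymal transition tested, 5 were higher (median log2 fold change 1.31, 0.80 without on replicate 1 and 0.68 without on replicate 2), and E-cadherin was among them. Vim (vimentin) was at 1.43 and 0.927 CPM off and 8.36 and 7.32 CPM on (log2 fold change 2.73, SE 0.33, adjusted p = 0.000237). Cav1 (caveolin 1) was at 2.89 and 1.49 CPM off and 21.7 and 23.3 CPM on (log2 fold change 3.35, SE 0.49, adjusted p = 0.000744). Cdh2 was at 0.233 and 0.0874 CPM off and 0.184 and 0.106 CPM on (log2 fold change -0.14, adjusted p = 0.955), Zeb1 was at 0.0155 and 0 CPM off and 0.0836 and 0.128 CPM on, and Snai1 was at 0.14 and 0 CPM off and 0 and 0.681 CPM on (log2 fold change 2.22, adjusted p = 0.526). Of 17 matrix proteases and their inhibitors, 9 were higher and 1 was lower (median log2 fold change 0.81). Plat, the tissue plasminogen activator, was at 8.91 and 7.57 CPM off and 41.9 and 38.3 CPM on (log2 fold change 2.28, SE 0.36, adjusted p = 0.00113). Mmp15 was at 39.6 and 38.1 CPM off and 89.3 and 93.3 CPM on (log2 fold change 1.23, SE 0.18, adjusted p = 0.000605), and Serpinb5 (maspin) rose by 1.58. Serpine2 was at 0.0155 and 0.0874 CPM off and 1.41 and 1.79 CPM on. Timp3, an inhibitor bound to the matrix, fell from 6.86 and 5.11 CPM to 1.32 and 0.255 CPM (log2 fold change -2.88, SE 0.52, adjusted p = 0.00246).

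Of 22 genes of fatty acid oxidation and ketone synthesis, 7 were lower and 4 higher (median log2 fold change -0.35). Hadha and Hadhb, the mitochondrial trifunctional protein, fell by 0.50 and 0.86, and Cpt1a, the entry step of oxidation, had log2 fold change 0.09, adjusted p = 0.746. Angptl4, an inhibitor of lipoprotein lipase, rose by 1.53. Of 19 genes of glycolysis, 3 were higher and 2 lower (median log2 fold change 0.11), shares of 15.8% and 10.5% that lie near those of all protein-coding genes. Those higher were the glucose transporter Slc2a1 (153 and 139.7 CPM off and 428 and 347 CPM on, log2 fold change 1.41, SE 0.21, adjusted p = 0.000709) and the hexokinases Hk1 and Hk2, by 1.07 and 0.77. Ldha (log2 fold change 0.24, adjusted p = 0.184) and Pkm (log2 fold change 0.08, adjusted p = 0.659) did not pass. Of 24 genes of cholesterol synthesis, 1 (0 without off replicate 1, 0 without on replicate 1, 0 without on replicate 2) was higher (4.17%) and 3 (1 without on replicate 2) lower (12.5%). Dhcr7, the last enzyme of the pathway, was at 174 and 157 CPM off and 78 and 80.5 CPM on (log2 fold change -1.06, SE 0.10, adjusted p = 4.86e-05). When single libraries were left out, the call was lost in at least 1 fit for Hadha (adjusted p = 0.0523 without off replicate 2), where the highest adjusted p is given.

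Among 30 genes of xenobiotic metabolism, 5 were higher and 8 lower (median log2 fold change -0.09), and classes of glutathione transferase went opposite ways. The alpha class rose, Gsta1 from 501 and 536 CPM to 2569 and 1789 CPM (log2 fold change 2.07) and Gsta4 by 1.56, while the mu class fell, Gstm3 from 440.5 and 353 CPM to 96.4 and 96.8 CPM (log2 fold change -2.04, SE 0.15, adjusted p = 1.1e-05) and Gstm1 by 0.96. Genes within a class are similar, and reads may be split between them. Abcb1a, an export pump, rose by 1.40, Cyp3a13 rose by 1.16, and Cyp3a25 fell from 29.4 and 23.3 CPM to 2.33 and 2.94 CPM (log2 fold change -3.33, SE 0.44, adjusted p = 0.000407). The conjugating enzymes Sult1c2 and Ugt2b5 had log2 fold changes of -2.61 and -3.89. Of 16 targets of NRF2, the factor of the oxidative stress response, 8 (4 without off replicate 2, 5 without on replicate 1) were higher (median log2 fold change 0.40). Of 21 genes of the integrated and ER stress responses, 3 were higher and 2 (0 without off replicate 1, 0 without off replicate 2, 0 without on replicate 1, 1 without on replicate 2) lower. Nupr1, a stress-induced nuclear protein, was at 149 and 136 CPM off and 357 and 325 CPM on (log2 fold change 1.26, SE 0.13, adjusted p = 8.1e-05), and Ern2, the IRE1 sensor of mucus-producing cells, rose by 0.96.

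Cytokines were more often higher than lower. Of 22 tested, 8 (4 without off replicate 1, 5 without off replicate 2, 3 without on replicate 1) were higher and 2 lower (median log2 fold change 0.88, 1.55 without off replicate 2 and 0.52 without on replicate 1). Cxcl16 was at 22.4 and 22.9 CPM off and 90.4 and 79.2 CPM on (log2 fold change 1.90, SE 0.22, adjusted p = 0.000193). Lif was at 9.87 and 9.06 CPM off and 19.2 and 27.8 CPM on (log2 fold change 1.31, SE 0.28, adjusted p = 0.00652). The neutrophil attractant Cxcl1 was at 0.528 and 0.664 CPM off and 2.61 and 2.21 CPM on (log2 fold change 2.02, SE 0.60, adjusted p = 0.0346). The epithelial homing chemokines fell, Ccl25 from 183 and 186 CPM to 61 and 50.5 CPM (log2 fold change -1.73, SE 0.19, adjusted p = 0.000127) and Ccl28 from 55.3 and 51.9 CPM to 9.62 and 14.2 CPM (log2 fold change -2.17, SE 0.21, adjusted p = 5.49e-05). Of 25 genes of the interferon response and antigen presentation, 7 (4 without off replicate 1, 3 without off replicate 2, 4 without on replicate 1) were higher and 1 was lower (median log2 fold change 0.55). Irf7, the factor that amplifies the response, was at 16.1 and 14.4 CPM off and 86 and 58.1 CPM on (log2 fold change 2.24, SE 0.25, adjusted p = 0.000147). Oasl1 was at 27.9 and 39 CPM off and 164 and 134 CPM on (log2 fold change 2.16, SE 0.26, adjusted p = 0.000209). Isg15 was at 0.762 and 0.455 CPM off and 7.68 and 4.57 CPM on (log2 fold change 3.32, SE 0.73, adjusted p = 0.00725). B2m, the light chain of class I molecules, fell by 0.67, while H2-K1, a heavy chain, rose by 0.55. In fits without 1 library, the call was lost in at least 1 fit for Cxcl1 (adjusted p = 0.167 without off replicate 1), Lif (adjusted p = 0.062 without on replicate 2), Isg15 (adjusted p = 0.0627 without off replicate 2) and H2-K1 (adjusted p = 0.105 without on replicate 1), where the highest adjusted p is given.

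By size of change, with a floor on the average level over all 12 COL libraries, the 15 genes that rose most ran from a log2 fold change of 4.84 (Ly6g) to 3.35 (Cav1). Beside genes named above they hold Dynap (0.684 and 0.909 CPM off and 24.9 and 14.9 CPM on), the glycosyltransferase B3galt5 (1.04 and 0.35 CPM off and 13.8 and 7.34 CPM on) and the water channel Aqp8 of surface colonocytes (0.295 and 0 CPM off and 3.38 and 0.851 CPM on), which passed the floor through its level in COL p53 (107 and 58.1 CPM off and 160.3 and 61.9 CPM on). Slc6a19, a transporter of neutral amino acids, was at 2.98 and 1.38 CPM off and 26.2 and 24 CPM on (log2 fold change 3.52, SE 0.36, adjusted p = 7.8e-05). Sema3e, a guidance factor, was at 0.186 and 0.699 CPM off and 6.76 and 3.19 CPM on. Clca4a was at 3 and 4.11 CPM off and 41.6 and 35.3 CPM on, Ly6g6c at 0.746 and 1.89 CPM off and 14.4 and 12.9 CPM on, Sprr2h at 0.668 and 0.402 CPM off and 6.47 and 5.42 CPM on and Ddx60, an antiviral helicase, at 3.36 and 3.88 CPM off and 52 and 23 CPM on. Sema3e, Sprr2h, B3galt5, Ereg and Ly6g6c also passed the floor through the other COL cultures, where they reached 19.1, 33.9, 42.7, 69.5 and 15.1 CPM. Cdh13, which encodes T-cadherin, was at 4.31 and 4.84 CPM off and 44.3 and 49.2 CPM on (log2 fold change 3.35, SE 0.16, adjusted p = 1.41e-06). The groups did not overlap for these genes, by the rule that chose them, and the on libraries of Ddx60, B3galt5, Sema3e and Aqp8 differed widely from each other. On leaving out single libraries, the call was lost in at least 1 fit for Aqp8 (adjusted p = 0.373 without on replicate 1), where the highest adjusted p is given.

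The 15 genes that fell most ran from -4.92 (Olfm4) to -3.00 (Acpp). Cps1, the entry enzyme of the urea cycle, was at 738 and 618 CPM off and 83.5 and 78.3 CPM on (log2 fold change -3.07, SE 0.57, adjusted p = 0.00304). Reg3b, an antimicrobial lectin, was at 113 and 107 CPM off and 9.32 and 9.06 CPM on (log2 fold change -3.58, SE 0.68, adjusted p = 0.00327). The SEs of both take in a wider spread in COL p53, where Cps1 was at 124 and 25.7 CPM off and 9.05 and 19.2 CPM on and Reg3b at 156 and 271 CPM off and 22.6 and 177 CPM on. Pbld2 was at 59.2 and 61.4 CPM off and 4.45 and 5.38 CPM on. Apol10a was at 18.8 and 16.2 CPM off and 1.22 and 0.936 CPM on, Pipox, a peroxisomal oxidase, at 14.6 and 15 CPM off and 1.22 and 1.45 CPM on, and Sh3rf2 at 12.2 and 6.61 CPM off and 0.401 and 1.23 CPM on. Hsd17b13, a protein of lipid droplets, was at 48.8 and 42.5 CPM off and 4.57 and 5.08 CPM on (log2 fold change -3.24, SE 0.22, adjusted p = 7.26e-06). Aadac, an esterase, was at 53.1 and 45.1 CPM off and 5.57 and 5.85 CPM on (log2 fold change -3.10, SE 0.21, adjusted p = 7.26e-06). The gene listed as ccdc198 was at 4.55 and 7.68 CPM off and 0.518 and 0.532 CPM on, under the floor in these 4 libraries, and Acpp, an acid phosphatase, at 29.4 and 30.4 CPM off and 3.8 and 3.66 CPM on. On average over these 4 libraries Sh3rf2 and Ugt2b5 were also under the floor, and they reached 17 and 32.1 CPM in the other COL cultures.

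The COL p53 culture, given the same 4-HT with the same Cre, had far fewer called genes. There 27 of the 18972 genes passed (0.142%), 6 of them higher (0.0316%) and 21 lower (0.111%), against 3776 in COL BRAF. Over the 1953 genes that rose with BRAFV600E the median log2 fold change in COL p53 was 0.16, 1439 had the same sign there, and 4 were called higher. Over the 1823 that fell it was -0.12, 1348 had the same sign in COL p53, and 15 were called lower. The difference of the responses passed the test for 855 genes (4.51%), with 550 (2.9%) above and 305 (1.61%) below the response of COL p53, in the direction of the BRAFV600E response for 526 that rose and 297 that fell. It passed for 300 genes without off replicate 1, 392 without off replicate 2, 291 without on replicate 1 and 528 without on replicate 2. A difference between cultures is also one between donors, whose libraries differed in Gata4 and Eif2s3y as given above, and the part of donor, or of the region of gut a culture came from, in the differences was not tested. It is also one of p53R172H, which 4-HT switched on in COL p53. The part of this allele, also for the p53 target Cdkn1a, was not tested. The responses were different for Cdh13 (difference of log2 fold changes, BRAF minus p53, 2.66, SE 0.21, adjusted p = 0.000375), Emp1 (2.83, SE 0.27, adjusted p = 0.000981), Muc3 (3.15, SE 0.31, adjusted p = 0.000981), Ly6a (1.98, SE 0.21, adjusted p = 0.00207) and Areg (1.86, SE 0.24, adjusted p = 0.00265). The same held for Dusp6 (1.19, SE 0.27, adjusted p = 0.0301), Cdkn1a (1.30, SE 0.24, adjusted p = 0.0132) and Lgr5 (-1.30, SE 0.29, adjusted p = 0.0279). Among the genes that moved the same way in COL p53 were Ces1d, Aadac and Gsta1. Ces1d had a log2 fold change of -1.74 there against -3.51, Aadac -1.87 against -3.10, and Gsta1 1.20 against 2.07. For Ces1d (-1.77, SE 0.28, adjusted p = 0.00728) and Aadac (-1.24, SE 0.27, adjusted p = 0.0294) the difference passed, and for Gsta1 it did not (0.87, SE 0.27, adjusted p = 0.091). Of these differences, those of Cdkn1a (adjusted p = 0.0502), Dusp6 (adjusted p = 0.106) and Lgr5 (adjusted p = 0.083) did not pass without off replicate 1. That of Lgr5 also did not pass without off replicate 2 (adjusted p = 0.0609), and those of Dusp6 and Lgr5 did not without on replicate 1 (adjusted p = 0.106 and 0.113), while that of Gsta1 passed without on replicate 2 (adjusted p = 0.0417). The difference of Aadac missed the threshold in all 4 such fits (adjusted p from 0.0637 to 0.123). The fetal and regenerative list had a median of 0.61 in COL p53 against 2.02 here, with a called difference for 21 of its 30 genes. Each other list had a lower share of genes with a called difference. It was called for 4 of 7 EGF ligands, 6 of 18 ERK feedback genes and 7 of 34 proliferation genes. For stem and Wnt genes it was 6 of 30, for YAP targets 3 of 17 and for gastric and serrated markers 1 of 12.

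**Figure D4:**
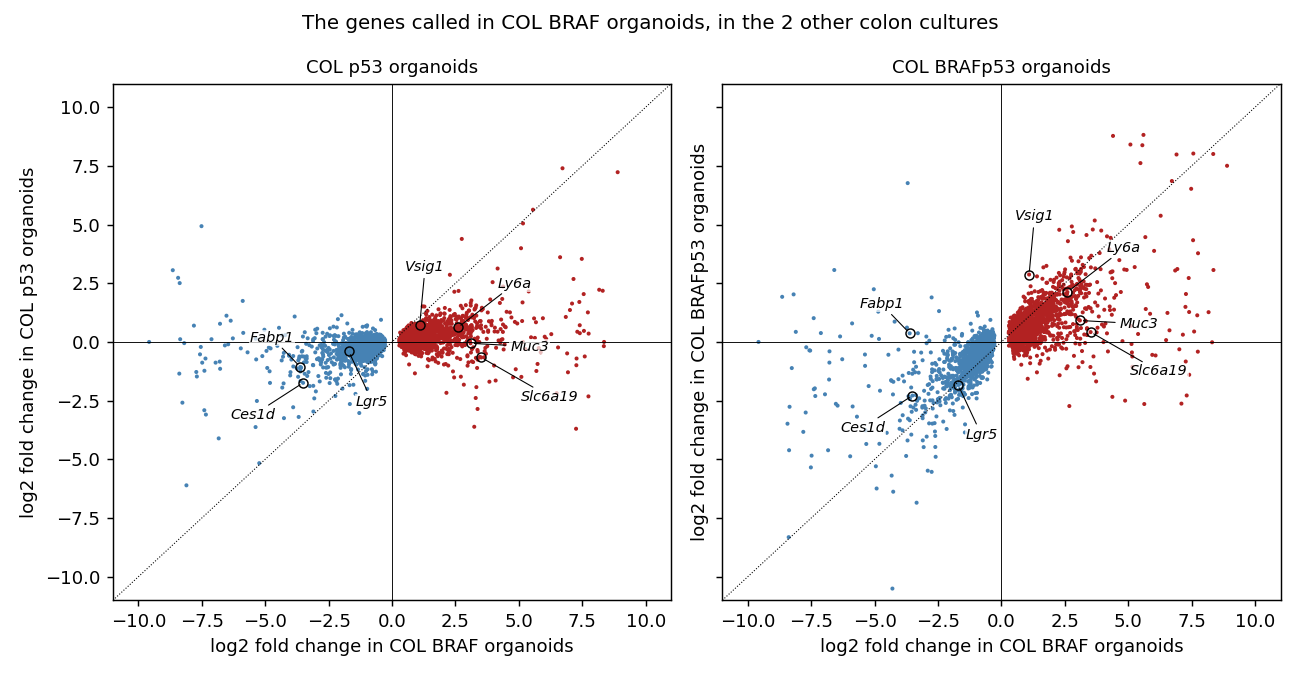
Log2 fold changes in COL p53 (left) and COL BRAFp53 organoids (right) of 3776 genes against those in COL BRAF organoids, where each was called (horizontal axes), red for higher and blue for lower there. The dotted line marks equal change. Median values of the red and blue genes are 0.16 and -0.12 on the left and 0.59 and -0.42 on the right.

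The COL BRAFp53 culture, from another donor, expresses BRAFV600E together with p53R172H. There 3360 genes passed (17.7%), 1888 higher (9.95%) and 1472 lower (7.76%), and the medians over the genes that rose or fell in COL BRAF were 0.59 and -0.42. Of the 1953 and 1823 genes, 983 and 679 were called in the same direction in COL BRAFp53. The difference of the responses passed for 0.907% of genes, 101 above (0.532%) and 71 below (0.374%) the response of COL BRAF, and these numbers rest on single libraries. The difference passed for 0 genes without off replicate 1 (2789 of 20555 genes at an unadjusted p under 0.05; DESeq2 and limma-voom on all libraries called 1366 and 229), 50 without off replicate 2, 13 without on replicate 1 and 4 without on replicate 2. Among these genes, Muc3 had a smaller rise in COL BRAFp53 (0.91 against 3.09, difference -2.18, SE 0.30, adjusted p = 0.0326), and Slc6a19 was not called there (0.42 against 3.52, difference -3.10, SE 0.47, adjusted p = 0.0355). Emp1 rose by 1.68 against 2.99 (difference -1.31, SE 0.27, adjusted p = 0.0492). Jund had -0.32 against 1.09 (difference -1.41, SE 0.25, adjusted p = 0.0404). Vsig1 rose more, by 2.87 against 1.09 (difference 1.78, SE 0.26, adjusted p = 0.0355). Fabp1, which fell here, was at 0.0931 and 0.275 CPM off and 0.313 and 0.152 CPM on in COL BRAFp53 (difference 3.98, SE 0.53, adjusted p = 0.0326), and Slc6a19 was at 22.6 and 13.8 CPM off and 28.8 and 19.8 CPM on, so the cultures differed before induction in both. Trp53, which carries the second allele there, rose by 0.94 against a fall of 0.44 here (difference 1.37, SE 0.18, adjusted p = 0.0326). Of these 7 differences all missed the threshold without off replicate 1 (adjusted p from 0.062 to 0.172) and without on replicate 2 (0.0584 to 0.122). Without on replicate 1 all but that of Fabp1 missed it (0.0528 to 0.128), and without off replicate 2 those of Emp1 and Jund did (0.0751 and 0.0746). The median log2 fold change in COL BRAFp53 ran from 0.21 in the fifth of genes with the shortest transcripts to -0.10 in the fifth with the longest, and in COL BRAF from -0.04 to 0.05, and the part of length in these differences was not tested.

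Without knowledge of the strand used in counting, genes that overlap an annotated gene on the other strand are uncertain. Of the genes named above these are Abcb1a, Anxa2, Axin2, Bak1, Braf, Ccl25, Ccn2, Ccnd1, Ccnd2, Cdc20, Cdk4, Cdkn1a, Clca4a, Cxcl16, Dclk1, Ddb2, Dll1, Dusp5, Egf, Elf3, Elk3, Ereg, Fosl1, Hadha, Hk1, Irf7, Itgb4, Jun, Junb, Jund, Kif20a, Krt7, Krt8, Lama3, Lrig1, Ly6g6c, Neurog3, Nid1, Notch1, Oasl1, Pbld2, Slc2a1, Tgfa, Timp3, Vil1, Zeb1, ccdc198 and mt-Co1.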

How the data were processed

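As the labels and methods state, total RNA of the organoids was sequenced paired-end (HiSeq), reads were trimmed (Trimmomatic 0.36), aligned to the mouse genome and counted per gene (STAR 2.5.2b). The authors deposited raw read counts per gene, without normalization and with replicates kept apart, for 45706 genes, of which 45143 were matched to GENCODE M21 (GRCm38) and 563 were not. The submitters' notes name both mm9 and mm10, the methods mm10, while neither strand use nor the annotation release is given in the sources used here.

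The 12 COL libraries (51.2 to 78.2 M counts) were fitted together by quasi-likelihood, each genotype and state with its own mean (edgeR 4.0.16, R 4.3.3; TMM, filterByExpr by group, estimateDisp, glmQLFit, glmQLFTest), which tested 18972 genes. Contrasts were on against off in each culture and the differences of COL BRAF from COL p53 and COL BRAFp53. A call needed an adjusted p (Benjamini-Hochberg) under 0.05. CPM are TMM-scaled to 1e6, and TPM use GENCODE exon lengths. Detection limits cover counting error only.

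The 35 gene lists (725 genes, 680 tested, 36 in 2 or more lists) are described by counts and medians with no set test, and members and lists were chosen with earlier results of these data known. Named are Braf and Trp53, list members (by default up to 5 per list and direction with the largest changes, plus defining genes), the 15 genes per direction with the largest log2 fold change among genes with non-overlapping groups whose average log2 CPM reached 3, and the 10 genes with the largest share of counts. Some genes that meet the rule are not reported here. Genes named beyond it, and families, were chosen after their values were seen. Promoter windows (RefSeq, GRCm38.p6) existed for 12263 of 18968 symbols.

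Alternatives were limma-voom (limma 3.58.1), DESeq2 1.42.0, RLE size factors, no filter, a minimum of 10 counts per library, a replicate block, the 4 COL BRAF libraries alone, leaving out each of them, an adjusted p under 0.01 and a log2 fold change of 1 or more in size. The procedure was tested on simulated data.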

Additional observations from a re-analysis of the deposited data

Results flagged for a closer look

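The responses of the COL cultures to 4-HT differed, by the test of the difference between their log2 fold changes. Between COL BRAF and COL p53 organoids 550 genes had a higher log2 fold change in COL BRAF and 305 a lower one. Among the genes named, the difference (BRAF minus p53) was 1.86 for Areg, 2.66 for Cdh13, 1.30 for Cdkn1a, 1.19 for Dusp6, 2.83 for Emp1, 1.98 for Ly6a and 3.15 for Muc3. It was -1.77 for Ces1d, -1.24 for Aadac and -1.30 for Lgr5. Between COL BRAFp53 and COL BRAF organoids 101 genes had a higher log2 fold change in COL BRAFp53 and 71 a lower one. The difference (BRAFp53 minus BRAF) was -1.31 for Emp1, -1.41 for Jund, -2.18 for Muc3 and -3.10 for Slc6a19, and 3.98 for Fabp1, 1.37 for Trp53 and 1.78 for Vsig1. Genotype, donor and region of origin of a culture cannot be told apart in these differences.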

How the results depend on the processing

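The count of genes called in COL BRAF organoids (3776) stayed within 1.5 times under RLE size factors (3779), without a filter on low counts (4478), with at least 10 counts in every library (3955), in DESeq2 (4636) and limma-voom (3756) and in a fit of the 4 COL BRAF libraries alone (4273). It fell to 2024 at an adjusted p under 0.01, to 1512 when the log2 fold change also had to reach 1 in size, and to 1961 to 2489 without 1 library. For the difference from COL p53 (550 genes higher in COL BRAF and 305 lower), RLE size factors gave 528 and 308 and limma-voom 573 and 308. Without a filter it was 1262 and 696, in DESeq2 1089 and 817, at an adjusted p under 0.01 it was 131 and 41, and without 1 library 201 to 366 and 85 to 162. With a log2 difference of at least 1 in size 185 were lower. For the difference of COL BRAFp53 from COL BRAF (101 higher and 71 lower), no filter gave 712 and 600, at least 10 counts 213 and 178, DESeq2 819 and 547, and limma-voom 140 and 89. With a log2 difference of at least 1 in size 33 were higher. In edgeR 0 passed in either direction at an adjusted p under 0.01, and 0 to 20 and 0 to 30 without 1 library (at the 0, 2789 genes had an unadjusted p under 0.05). The cause of these shifts was not tested.

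Of the 197 called genes named here, 4 lost the call under these scalings, filters, tools or the 4-library fit: Aqp8 and Cxcl1 in limma-voom, Clu in DESeq2 and limma-voom, and Elf3 with at least 10 counts. None changed sign, and 29 lost the call in at least 1 fit that lacked a library. Some genes that were not called changed sign, and have no direction here. Without 1 library the log2 fold change ran from -0.67 to 0.73 for Cdh2, -0.17 to 1.02 for Cdkn2a, -0.051 to 0.24 for Cpt1a, -0.027 to 0.45 for Dclk1, -5.14 to 0.92 for Eif2s3y, -0.033 to 0.42 for Etv5, -0.019 to 0.88 for Gja1, -0.71 to 0.13 for Neurog3, -0.14 to 0.011 for Rpl36, -5.24 to 7.43 for Snai1, -0.69 to 7.29 for Spp1 and -0.035 to 0.30 for Spred1.

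With the replicate number as a replicate block, 3220 genes were called in COL BRAF organoids, 400 and 128 were higher and lower in COL BRAF than in COL p53, and 3 and 14 in COL BRAFp53 than in COL BRAF. Of the called genes named, 3 lost the call under the block. The deviations of same-numbered libraries from their group means correlated at -0.0128 in COL BRAF, 0.0235 in COL p53 and -0.0127 in COL BRAFp53. These values run over all genes tested, with 1 pair per state, and cannot decide whether same-numbered libraries shared a batch. In COL BRAF the mitochondrial share was higher in replicate 2 both off (5.54% and 8.14%) and on (6.74% and 8.36%). In COL BRAFp53 on organoids it was lower in replicate 2 (2.86% and 2.58%). Depth limits genes near 3 counts, such as Krt13 and Epgn.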

Other observations

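Further gene families were chosen after their values were seen. Of 88 nuclear genes for subunits of the respiratory chain and ATP synthase, 25 were lower in COL BRAF on organoids, 81 had a log2 fold change below 0 and the median was -0.29. In COL p53 organoids the median was -0.04 and in COL BRAFp53 organoids 0.19. Of 11 protein-coding genes of the mitochondrial genome, which encode other subunits of these complexes, none was called (edgeR, and 0 at an unadjusted p under 0.05) and the median was 0.31 (0.12 in COL p53 and -1.42 in COL BRAFp53). Of 77 mitochondrial ribosomal proteins 14 were lower and 1 higher (median -0.22, against 0.21 in COL BRAFp53). The 97 cytosolic ribosomal proteins had a median of -0.09, with 1 higher and 2 lower. Of 7 small proline-rich proteins, precursors of the cornified envelope, 5 were higher (median 2.32). Of 105 UDP-glucuronosyltransferases, carboxylesterases, cytochromes P450 and glutathione transferases, 29 were lower and 6 higher (median -0.33, and -0.45 in COL p53).

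Some abundant nuclear RNAs, also chosen after their values were seen, were called. Malat1 was at 432 and 621 CPM off and 1229 and 1236 CPM on (log2 fold change 1.23, SE 0.19, adjusted p = 0.00117) and Neat1, the scaffold of paraspeckles, at 176 and 181 CPM off and 399 and 362 CPM on (log2 fold change 1.10, SE 0.15, adjusted p = 0.000394). Rn7sk, which restrains transcription elongation, was at 5.41 and 6.31 CPM off and 14.7 and 17.8 CPM on (log2 fold change 1.47, SE 0.18, adjusted p = 0.000254). In COL BRAFp53 organoids Malat1 had a log2 fold change of -0.09. Of 14518 protein-coding genes tested 24.6% were called, against 8.78% of 581 long intergenic RNAs (28 higher and 23 lower) and 3.74% of 775 antisense RNAs.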
